A study of Mus musculus with 28 samples.

Results

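The sites described here are the Ctcf summits found in all 3 cultures that have a Ctcf summit list: Smchd1 null neural stem cells, wild-type neural stem cells carrying a non-silencing shRNA, and untransduced wild-type neural stem cells. Members were chosen by the summit lists themselves. A summit of the untransduced list on an assembled chromosome was a member when both the null list and the non-silencing list held a summit within 1 kb of it. Of 8292 summits in the untransduced list, 4755 (57.3%) met the rule, out of 372380 summits in the 10 lists called at the threshold 5e-4 across the series. Membership, scores and distances between the Ctcf lists therefore come from the rule and are given as a description. Marks, gene positions and DNA letters were not used by it.

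The study asked how loss of Smchd1 affects chromatin, and it mapped Ctcf, Smchd1, H3K4me3, H3K27me3 and DNA methylation. Cells came from E14.5 mouse embryo brain on a mixed background (C57BL/6 x FVB/N), were labelled male and were grown with EGF and bFGF. The null cells were homozygous for the MommeD1 allele of Smchd1 (Smchd1MommeD1/MommeD1). Each of the 3 Ctcf lists was called on 2 pooled libraries, against Ctcf ChIP from wild-type cells given a Ctcf shRNA (1 library for each of 2 hairpins). All 3 Ctcf lists share that control, and a site that kept its signal after Ctcf knockdown would be weak or missing in each of them. Null H3K4me3 and H3K27me3 lists and their wild-type counterparts each pooled 2 libraries per mark and genotype, and each MBD list pooled 3. The labels do not say whether libraries came from separate embryos or cultures.

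Ctcf is a zinc finger protein that binds DNA through a long motif and stops cohesin as it extrudes chromatin loops, so that its sites mark many domain borders and insulators. Its binding can be blocked by CpG methylation within the motif. H3K4me3 marks active and poised promoters, H3K27me3 marks genes silenced by Polycomb, and Smchd1 is an atypical SMC protein, related to the cohesin subunits, that acts in silencing of the inactive X chromosome and of some gene clusters.

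The letters under the sites are shown first, because they were not used to choose the members. They could be read only inside promoter windows, which held 350 of the 4755 members, so that what follows on letters does not cover the other members. A short core of the Ctcf motif was searched as AGNNGGCNC on both strands of the RefSeq promoters (GRCm38.p6, the assembly of mm10), each of which runs from 250 bases before to 50 bases after a start. The 8 windows below belong to the members with the highest untransduced score whose core lay within 50 bp of the summit and whose window ended before the gene's start. Each has 61 bases, read 5′ to 3′ along the strand that holds the core, and capitals mark the core. Positions are on mm10.
Kcnh1 promoter, chr1:192190708-192190768, plus strand: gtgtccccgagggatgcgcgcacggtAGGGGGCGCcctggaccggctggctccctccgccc
Adprhl2 promoter, chr4:126321720-126321780, minus strand: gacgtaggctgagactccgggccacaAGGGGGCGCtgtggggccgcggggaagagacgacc
Nsfl1c promoter, chr2:151494101-151494161, plus strand: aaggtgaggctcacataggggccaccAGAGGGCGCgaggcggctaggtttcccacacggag
Vps36 promoter, chr8:22192739-22192799, minus strand: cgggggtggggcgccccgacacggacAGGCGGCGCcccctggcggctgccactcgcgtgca
Sh3gl1 promoter, chr17:56036773-56036833, plus strand: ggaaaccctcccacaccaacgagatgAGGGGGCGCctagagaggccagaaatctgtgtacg
Parl promoter, chr16:20302420-20302480, minus strand: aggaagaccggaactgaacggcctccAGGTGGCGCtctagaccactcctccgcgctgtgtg
Dhrs13 promoter, chr11:78032230-78032290, plus strand: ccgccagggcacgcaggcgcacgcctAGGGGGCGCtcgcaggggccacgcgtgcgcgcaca
Scnn1g promoter, chr7:121734276-121734336, plus strand: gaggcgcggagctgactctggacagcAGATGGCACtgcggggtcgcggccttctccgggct

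The same search in promoters whose untransduced summit was listed in only some of the cultures gave the 3 windows below, chosen by the same order of score. These 3 summits had a non-silencing summit within 1 kb and no null summit.
Nol9 promoter, chr4:152039238-152039298, plus strand: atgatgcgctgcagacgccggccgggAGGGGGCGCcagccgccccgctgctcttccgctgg
Rabggta promoter, chr14:55722277-55722337, minus strand: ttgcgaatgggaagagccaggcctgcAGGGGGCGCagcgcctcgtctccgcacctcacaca
LOC102631992 promoter, chr19:4257730-4257790, plus strand: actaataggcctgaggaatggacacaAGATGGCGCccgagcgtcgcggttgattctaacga

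Not every strong member had these letters. The 2 promoters below held the highest members with neither the core nor the shorter AGGNGGC anywhere in their 300 bases, and their windows are centred on the summit and read along the gene's strand.
Atp5g2 promoter, chr15:102671158-102671218, minus strand: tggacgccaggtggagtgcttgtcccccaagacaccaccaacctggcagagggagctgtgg
Comtd1 promoter, chr14:21848990-21849050, minus strand: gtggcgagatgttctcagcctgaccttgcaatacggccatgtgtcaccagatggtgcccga

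Across all promoters of the table, which covered 20 chromosomes, 376 distinct promoters of 362 genes held a member. The core was present in 220 of these 376 promoters (58.5%, exact 95% binomial interval 53.3 to 63.5). It was present in 94 of 170 promoters that held only another untransduced summit (55.3%, 47.5 to 62.9), in 6360 of 31722 promoters with no summit of any Ctcf list (20.0%, 19.6 to 20.5), and in 21.2% of all 32817 promoters. Promoters with members thus held the core more often than promoters without Ctcf, while the intervals of members and of other untransduced summits overlapped. Base composition moved with this result. The median GC content was 62.8% in promoters with a member, 61.2% in promoters with another untransduced summit and 52.3% in promoters with no Ctcf summit. In the 3 bands of GC content from 45% up, the core was still the more frequent with a member: 49.1% against 15.9% without any Ctcf summit at 45 to 55% GC, 61.3% against 25.6% at 55 to 65%, and 61.3% against 36.2% at 65% and over. Under 45% GC the order was the other way, with 0 of 6 member promoters (0 to 45.9%) against 7.91%.

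The core also lay close to the summit. In the 220 member promoters that held it, the nearest core was centred a median of 20 bp from the summit, and in 176 of them (80.0%) it was within 50 bp. The median was 28 bp, with 64 of 94 (68.1%) within 50 bp, for other untransduced summits. Taking only summits at least 60 bp from the edge of the promoter window, a core lay within 50 bp of the member in 143 of 302 promoters (47.4%, 41.6 to 53.2). For other untransduced summits it did so in 45 of 118 promoters (38.1%, 29.4 to 47.5). A summit in overlapping promoters was counted once for each, here and above, and the intervals do not allow for this. A window of the same width at the centre of promoters with no Ctcf summit held the core in 7.53% (7.24 to 7.83).

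**Figure D1:**
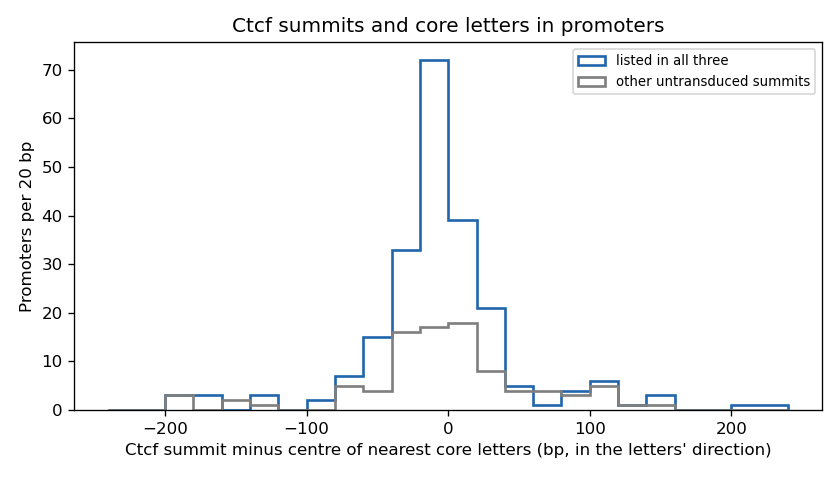
Position of the Ctcf summit relative to the centre of the nearest core in promoters that hold the core. The x axis is the offset in bp along the core's own direction, the y axis counts promoters per 20 bp, the blue line is the 220 promoters with a member and the grey line the 94 promoters with another untransduced summit. Both lines peak near 0, with 176 and 64 promoters within 50 bp.

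The bases beside the core were counted as well, numbered so that the A of the core is base 1. In 192 matches within 50 bp of a member, base -3 was C in 77.6%, against 27.2% of 6783 matches in promoters with no Ctcf summit. Base -4 was C in 60.4% against 28.7%, and base -5 was G in 58.9% against 33.8%. The free positions inside the core moved the same way. Base 3 was G in 66.1% against 34.2%, base 4 was G in 67.7% against 25.5%, and base 8 was G in 83.9% against 28.8%. The letters next to member summits thus extended beyond the letters that were searched for. These bases were not counted at other untransduced summits, so they do not set members apart from those. A match in overlapping promoters was counted once for each.

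Promoters shown above differed in what else they carried. Kcnh1 encodes a voltage-gated potassium channel. Its member scored 24.9 in the null list, 42.4 in the non-silencing list and 32.1 in the untransduced list, where the score is the authors' −log10 value for the summit in its own list. This promoter had summits of every other mark but H3K27me3 within 1 kb: H3K4me3 at 14.3 in null and 13.6 in wild-type cells, MBD at 17.8 in the list named for null and 28.6 in the list named for wild type, and Smchd1 at 4.16. Adprhl2, which encodes an ADP-ribose hydrolase, also had H3K4me3 (55.1 in null and 8.00 in wild-type cells) beside MBD (43.6 in the list named for null and 61.7 in the list named for wild type). Nsfl1c, a cofactor of the p97 ATPase, Vps36, a subunit of the endosomal sorting complex ESCRT-II, and Parl, a mitochondrial rhomboid protease, had H3K4me3 in both genotypes and neither MBD nor Smchd1 within 1 kb.

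Scores and positions describe how alike the 3 lists were at the members. The median member score was 9.80 in the null list (3.36 to 56.6), 13.9 in the non-silencing list (3.35 to 75.6) and 9.54 in the untransduced list (3.31 to 57.6). Summits outside the set had a median untransduced score of 7.89. The lists differ in length, with 11920 null, 20483 non-silencing and 8292 untransduced summits, and the depth of the libraries is unknown, so that differences of score between lists show no change in binding. The members matched 4705 distinct null summits (39.5% of that list) and 4726 distinct non-silencing summits (23.1%).

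Matched summits lay at nearly the same base. The null summit was a median of 20 bp from the untransduced one and the non-silencing summit 18 bp, and 3941 members (82.9%) had both within 50 bp. The 1 kb limit mattered for few members: 120 (2.52%) had a partner over 250 bp away. Just inside the limit were members near Nr5a2 (null summit at 991 bp), Slc38a3 (981 bp) and Kazn (non-silencing summit at 980 bp). Just outside it were summits near Dipk1b (non-silencing summit at 1030 bp), Unc5b (null summit at 1033 bp) and Gm42226 (1042 bp).

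Membership followed the untransduced score. With the untransduced list cut into 4 score bands of about equal size, from the lowest band to the highest, 41.8%, 52.2%, 59.95% and 76.2% of untransduced summits were members. The share was 85% of the 100 highest summits, and 13 of the 20 highest. The highest summits of the untransduced list were not members, and were looked up after their values were seen: one near Pgk1 scored 190.9 with no null summit within 1 kb, one in Mlkl scored 116.7 with neither, and 2 in Ube2m scored 84.1 and 51.4 with neither. Of the other 3537 summits, 2347 were also in the non-silencing list and not the null list, 361 in the null list and not the non-silencing list, and 829 in neither.

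The member with the highest untransduced score lay on chromosome Y at position 90805202, 60119 bp from Gm52481, and scored 56.6 in the null, 64.3 in the non-silencing and 57.6 in the untransduced list. The next was 72 bp from Myrf, which encodes a transcription factor of myelin genes, with 33.8 in the null, 45.3 in the non-silencing and 57.5 in the untransduced list. The members 10567 bp from Dipk1b and inside Gdf15, a stress-induced growth factor of the TGF-beta family, scored 44.6 and 40.4 in the null list, 55.6 and 54.7 in the non-silencing list, and 54.7 and 53.2 in the untransduced list. The Y member lies inside the lncRNA gene Gm33272, so that high scores in all 3 lists were seen both far from coding genes and inside them.

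Kdm3b, which encodes a histone H3K9 demethylase, had a member 99 bp away that scored 43.9 in the null, 49.9 in the non-silencing and 51.7 in the untransduced list. Hpca, the neuronal calcium sensor hippocalcin, had one inside the gene at 41.5 in the null, 46.9 in the non-silencing and 51.0 in the untransduced list. The member near Atp5g2, for subunit c of the mitochondrial ATP synthase, scored 33.6 in the null, 69.5 in the non-silencing and 42.1 in the untransduced list. The order of the lists was not the same at every site. Near Rsph14 the null score was 14.2, against 40.0 in the non-silencing and 42.5 in the untransduced list, whereas in Coa5, a cytochrome c oxidase assembly factor, the null score was 30.5, against 22.9 in the non-silencing and 41.3 in the untransduced list.

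The rest of the 20 highest members were nearest to Creb3l1, Cfap45, Ptpdc1, Sntb2, Epm2aip1, Slc46a1 (the proton-coupled folate transporter), Osbpl1a, Anks1, Slc48a1 (a haem transporter), Sec22c and Arvcf. Of the 20, 19 had both partners within 50 bp, 9 lay inside a coding gene and 7 within 2 kb of a coding gene end. Gene end here means the start or the end of an annotated gene. H3K4me3 lay within 1 kb of 3 of them in null and of 5 in wild-type cells, and Smchd1 within 1 kb of none. Over all members, 47.7% lay inside a coding gene and 26.1% at a coding gene end. H3K4me3 was near 22.1% of all members in null and 22.4% in wild-type cells, and Smchd1 near 1.54%. With 20 sites these counts do not set the highest members apart.

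**Figure D2:**
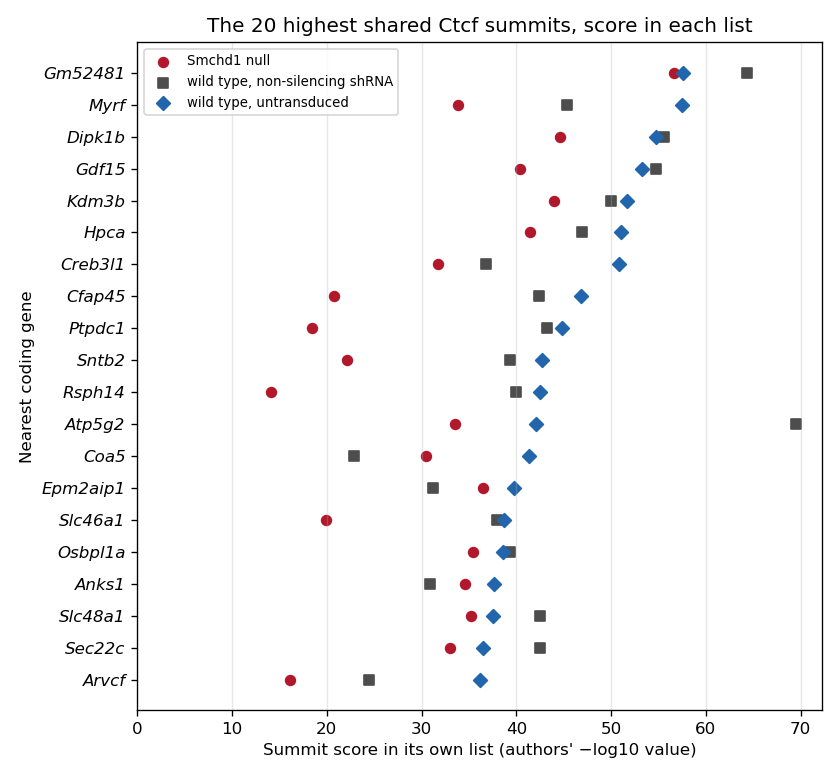
Score of the 20 members with the highest untransduced score in each Ctcf list, named by the nearest coding gene. The x axis is the authors' −log10 score in that list, from 0, with 1 point each for the null, the non-silencing and the untransduced list and no replicates, since lists were called on pooled libraries. The untransduced score chose and ordered these members. Null scores spread from 14.2 near Rsph14 to 56.6 on chromosome Y.

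Members were spread over all chromosomes. On autosomes 4722 of 8213 untransduced summits were members (57.5%), with a range of 54.1 to 60.6% over single autosomes. On chromosome X 23 of 64 were (35.9%) and on chromosome Y 10 of 15. All 10 Y members lay between positions 90726359 and 90829150, 5 of them within the lncRNA gene Gm33272, and their untransduced scores ran from 4.61 to 57.6.

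Members seldom stood in clusters. The median distance to the next member was 178386 bp, and 347 gaps (7.33%) were 10 kb or shorter. Joining members within 10 kb of each other left 4090 single members, 295 pairs and 20 triples, and 3 longer runs. The longest held 6 members on chromosome Y from 90794766 to 90808974. A run of 5 on chromosome 17, from 39843183 to 39848780, overlapped the 18S rRNA pseudogene Rn18s-rs5 and the start of the lncRNA AY036118, and all 5 of its members had MBD within 1 kb. A run of 4 lay in Ctif, a translation initiation factor gene. The next by untransduced score were triples nearest to Car7, with 31.5 at its highest member, and at Fcgr1, with 28.4. Whether reads at the Y members, in these runs or outside them, and in the Rn18s-rs5 run map to a single place was not tested.

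Counted per gene, Pde4d, a cAMP phosphodiesterase gene that spans 1302 kb, held 6 members and Gse1 5. Ctif, Shank2 (a postsynaptic scaffold), Arhgap26, Cdh13 (T-cadherin), Pknox2, Cacna1a (a P/Q-type calcium channel subunit) and Zfp469 held 4 each. These genes were listed by their number of members.

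Members lay near H3K4me3 more often than other untransduced Ctcf summits did. A null H3K4me3 summit was within 1 kb of 1051 members (22.1%, 20.9 to 23.3) and of 513 other untransduced summits (14.504%, 13.4 to 15.7), beside 18.9% of all untransduced summits. A wild-type H3K4me3 summit was within 1 kb of 1066 members (22.4%, 21.2 to 23.6) and of 526 other summits (14.9%, 13.7 to 16.1), beside 19.2% of all. The difference was 7.60 percentage points for null H3K4me3 (Newcombe 95% interval 5.93 to 9.24) and 7.55 for wild-type H3K4me3 (5.87 to 9.20). These intervals and all others here cover counting error over summits only. The lists pool their libraries, so no test over samples could be made.

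The single classes of Ctcf summit outside the set also had lower shares, with intervals apart from the members' in 5 of 6 classes. Null H3K4me3 was near 13.2% of the 2347 summits in both wild-type lists and not the null list, and near 16.6% of the 829 found in the untransduced list only. It was near 14.3% of 4278 summits in the null and non-silencing lists but not the untransduced list. It was near 10.6% of 2530 summits in the null list only, and near 9.14% of 8936 in the non-silencing list only. None of these 5 intervals reached the lower bound of the members' interval. That of the remaining class did: among the 361 summits in the null and untransduced lists but not the non-silencing list, null H3K4me3 was near 18.3% (14.4 to 22.7).

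**Figure D3:**
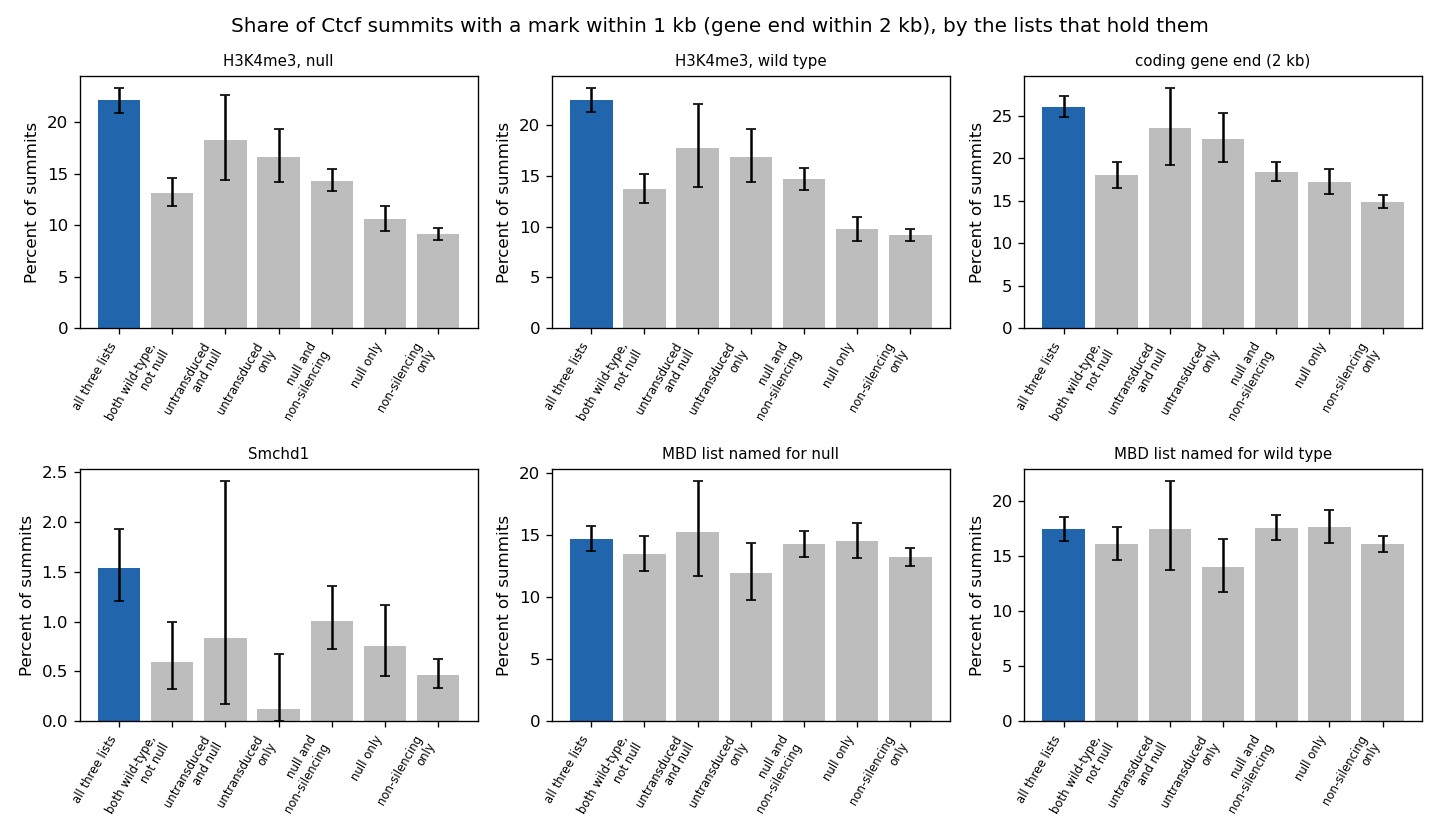
Percent of Ctcf summits with a mark summit within 1 kb, or a coding gene end within 2 kb, by the lists that hold the Ctcf summit. Bars start at 0, error bars are exact 95% binomial intervals over summits, and blue is the 4755 members. For null H3K4me3 the members stood at 22.1%, above each of the 6 grey classes, of which only the class of 361 summits in the untransduced and null lists had an overlapping interval, while the MBD intervals of members overlapped those of each grey class.

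The difference was present within bands of score as well. From the lowest to the highest of the 4 score bands, null H3K4me3 was near 21.8%, 20.8%, 21.8% and 23.4% of members, against 15.8%, 13.3%, 14.2% and 14.2% of other untransduced summits. Members were above the others in each band, and the intervals did not overlap in any of them.

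**Figure D4:**
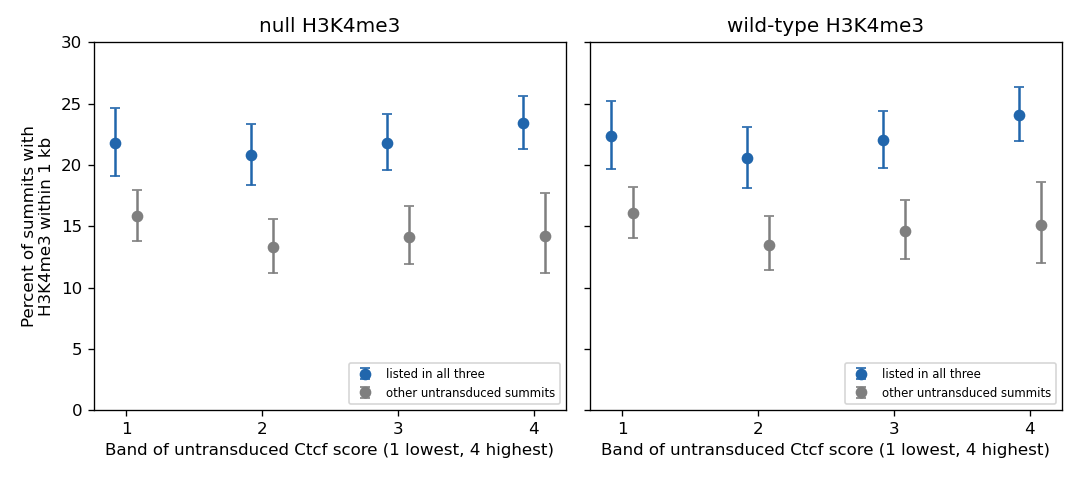
Percent of untransduced Ctcf summits with H3K4me3 within 1 kb, by band of untransduced score (1 lowest, 4 highest), for null H3K4me3 (left) and wild-type H3K4me3 (right). Points are members (blue) and other untransduced summits (grey), and bars are exact 95% binomial intervals over summits. In null cells members stood between 20.8% and 23.4% and the others between 13.3% and 15.8%.

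Position relative to genes moved with H3K4me3. A coding gene end lay within 2 kb of 1240 members (26.1%, 24.8 to 27.4) and of 692 other untransduced summits (19.6%, 18.3 to 20.9), beside 23.3% of all. Members were less often over 50 kb from a coding gene, with 7.55% (6.81 to 8.34) against 9.87% (8.90 to 10.9), and less often inside one, with 47.7% (46.2 to 49.1) against 51.1% (49.4 to 52.7). Among summits within 2 kb of the end of any annotated gene, null H3K4me3 was near 49.3% of members (46.8 to 51.7) and 39.0% of others (35.9 to 42.1). Away from gene ends it was near 7.75% (6.83 to 8.74) and 5.19% (4.36 to 6.12). The higher share of members was thus present both at gene ends and away from them.

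Where the promoter table gave a start, members could be placed more closely. Of 4625 members on its 20 chromosomes, 898 (19.4%, 18.3 to 20.6) lay within 2 kb of a start, against 528 of 3435 other untransduced summits (15.4%, 14.2 to 16.6). H3K4me3 of either genotype was within 1 kb of 70.8% of these members (67.7 to 73.8) and of 61.9% of these others (57.6 to 66.1). Upstream placement prevailed at starts: 593 of the 898 members (66.0%) lay upstream, against 307 of the 528 others (58.1%). Within 500 bp of the start, 383 members lay upstream and 135 downstream.

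The nearest H3K4me3 summit stood beside the Ctcf summit and not on it. Among members with H3K4me3 within 1 kb, the median distance was 233 bp in null and 216 bp in wild-type cells, against 256 bp in null and 246.5 bp in wild-type cells for other untransduced summits. Only 8 members in null and 5 in wild-type cells had it within 50 bp. The 5 highest members at a gene end with H3K4me3 in both genotypes included Kdm3b (H3K4me3 score 39.4 in null and 51.6 in wild-type cells), Atp5g2 (40.7 in null and 43.1 in wild type) and Slc48a1 (33.05 in null and 47.9 in wild type). The other two were at Comtd1 and at Kcnh1.

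Most members with H3K4me3 had it in both genotypes, as did most other untransduced summits with the mark. Of 1140 such members, 977 had a summit within 1 kb in both lists, 74 in the null list only and 89 in the wild-type list only. Of 568 such other summits, 471 had one in both lists, 42 in the null list only and 55 in the wild-type list only. The median H3K4me3 score of the 977 was 26.8 in null and 26.8 in wild-type cells, while it was 8.37 at the null-only members and 9.25 at the wild-type-only members. Part of the 1-list members had a summit of the other genotype a little farther off: 30 of the 74 and 28 of the 89 had one within 2 kb. The highest of these were found after their values were seen. They were a member in Erh, with a null score of 56.7 at 841 bp and the nearest wild-type summit at 1542 bp, and one 1355 bp from Chsy1, a chondroitin synthase gene, with a wild-type score of 41.8 at 972 bp and the nearest null summit at 1013 bp.

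DNA methylation, read as MBD summits, differed little in frequency between members and other summits at 1 kb, and was scarce right at the site. The 2 MBD lists carry names that contradict the titles of their samples, so each is called by its own name and no genotype direction is drawn. The list named for null had a summit within 1 kb of 698 members (14.7%, 13.7 to 15.7) and of 471 other untransduced summits (13.3%, 12.2 to 14.48), beside 14.1% of all. The list named for wild type had one near 829 members (17.4%, 16.4 to 18.5) and 556 others (15.7%, 14.53 to 16.96), beside 16.7% of all. The interval of the difference reached from -0.154 to 2.86 percentage points for the list named for null and from 0.0912 to 3.32 for the list named for wild type.

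Within 250 bp the order turned round. There the list named for null had a summit near 38 of 4755 members and 54 of 3537 others, a difference of -0.728 percentage points (-1.24 to -0.266). The list named for wild type had one near 52 members and 59 others, a difference of -0.574 (-1.12 to -0.0717). The median distance from a member to its nearest MBD summit within 1 kb was 619 bp in the list named for null and 612 bp in the list named for wild type, against 614 and 611 bp for other untransduced summits, so that the medians did not set members apart. Only 3 members in the list named for null and 4 in the list named for wild type had one within 50 bp. In the list named for null, 209 members had their nearest MBD summit within 500 bp, 489 between 500 and 1000 bp, 364 between 1000 and 1500 bp and 300 between 1500 and 2000 bp. The nearest methylated summit was thus most often 500 to 1000 bp away, of these 4 ranges.

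**Figure D5:**
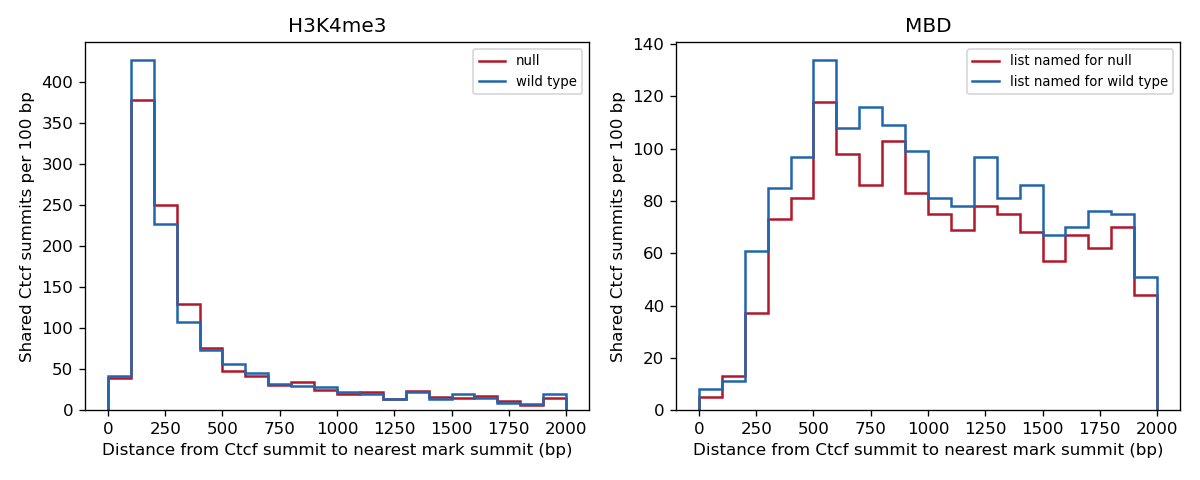
Distance from each member to the nearest summit of H3K4me3 (left) and MBD (right), in bins of 100 bp up to 2000 bp. The y axis counts members, red lines are the null list or the MBD list named for null, and blue lines the wild-type list or the MBD list named for wild type. H3K4me3 counts peak between 100 and 200 bp, with medians of 233 bp in null and 216 bp in wild-type cells among members with a summit within 1 kb, while MBD counts are low near 0 and highest between 500 and 1000 bp.

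Methylated neighbours of members were more frequent within genes than at starts or outside genes, and other untransduced summits showed nearly the same pattern. MBD of either list was within 1 kb of 24.8% of the 1463 members inside coding genes and away from ends (22.6 to 27.1), of 23.4% of the 785 near a gene end other than a listed start (20.5 to 26.6), of 12.4% of the 1479 members outside genes (10.8 to 14.2) and of 10.9% of the 898 members at starts (8.95 to 13.1). For other untransduced summits the shares were 21.9% inside, 20.7% near another gene end, 10.6% outside and 11.6% at starts. The highest members beside MBD of both lists were in Hpca (24.9 in the list named for null and 37.1 in the list named for wild type), near Rsph14 (10.1 and 8.41 in that order of lists), and in Adcy4, 4930467E23Rik and Miga1. H3K4me3 and MBD together were found at 120 members (2.52%, 2.10 to 3.01), against 44 other summits (1.24%, 0.905 to 1.67).

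H3K27me3 was almost absent from the members. The null list had 0 and the wild-type list 4 members with a summit within 1 kb (0.0841%), beside 3 of the other untransduced summits and 0.0844% of all. Both H3K27me3 lists are short, with 77 null and 732 wild-type summits, and a summit caller marks a broad domain poorly. The 4 members were 2717 bp from Foxc2 (a forkhead factor of mesenchyme), in Kif26a, 1270 bp from Hoxa9 and 7665 bp from Lbx1 (a homeobox factor). Null, non-silencing and untransduced Ctcf scores were 29.8, 19.9 and 12.4 near Foxc2, and 9.98, 35.1 and 8.99 in Kif26a.

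Smchd1 summits were rare near Ctcf and were found at members more often than at other summits. Within 1 kb there was a wild-type Smchd1 summit for 73 members (1.54%, 1.21 to 1.93) and for 18 other untransduced summits (0.509%, 0.302 to 0.803), beside 1.1% of all. It was near 0.751% of null-only summits (0.453 to 1.17), 0.459% of non-silencing-only summits (0.329 to 0.622), 0.597% of those in both wild-type lists and not the null list (0.326 to 0.999) and 0.121% of untransduced-only summits (0.00305 to 0.670). In the 2 other classes the interval overlapped that of the members: 1.01% (0.728 to 1.35) of summits in the null and non-silencing lists but not the untransduced list, and 0.831% (0.172 to 2.41) of those in the null and untransduced lists but not the non-silencing list. From the lowest to the highest score band, Smchd1 was near 1.35%, 2.17%, 1.17% and 1.51% of members. The shares of other untransduced summits were 0.487%, 0.412%, 0.468% and 0.837%. Members were above the others in each band, but the intervals were apart only in the band next to the lowest. The members lay close to their Smchd1 summit, at a median of 22 bp, with 56 of 73 within 50 bp. Seen from the other side, 72 of the 407 Smchd1 summits (17.7%) had a member within 1 kb. The Smchd1 list was called against Smchd1 ChIP in null cells.

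The median Ctcf score of these 73 members was 12.1 in the null, 13.4 in the non-silencing and 9.39 in the untransduced list, against 9.80, 13.9 and 9.54 over all members in the same order of lists. Their median was thus above that of all members in the null list and slightly below it in the others. Wild-type H3K4me3 was near 23 of them (31.5%, 21.1 to 43.4), against 22.4% of all members, and its part in the overlap with Smchd1 was not tested. MBD of either list was near 8 of the 73 (10.96%), against 18.0% of all members, and a coding gene end near 18 (24.7%), against 26.1%. Of the 71 that could be placed with the promoter table, 40 were outside genes, against 1479 of all 4625 members so placed (32.0%). The highest Smchd1 score was 21.1, at the Y member at position 90829150.

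Next by Smchd1 score were members near the interferon gene Ifna13 (18.6), Snai2 (17.7), a zinc finger factor of epithelial to mesenchymal transition, and Hoxa9 (17.3). Then came Mtus2 (16.9), Caln1 (15.6), Gpat3 (14.51), Nrxn3 (14.49), a presynaptic neurexin, Gm15097 on chromosome X (12.9) and Nr2f2 (12.9), an orphan nuclear receptor. The Ctcf scores at the Caln1 member were 30.98 in the null, 27.9 in the non-silencing and 24.1 in the untransduced list. At the Gpat3 member they were 16.2 in the null, 29.9 in the non-silencing and 10.8 in the untransduced list, with the Smchd1 summit 1 bp away.

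Gene lists describe where members lie among known Ctcf loci. Over all coding genes, 25.9% had a member within 20 kb, and genes of a cluster can share 1 member. Of 24 genes of the Ctcf and cohesin machinery, 13 had a member, including Ctcf itself with 3. The highest of these 3 scored 17.3 in the null, 9.58 in the non-silencing and 13.4 in the untransduced list, beside H3K4me3 at 65.5 in null and 49.9 in wild-type cells. Members of the list also lay in Stag1 (a cohesin subunit), at Pds5a (a cohesin regulator), within 20 kb of Cdca5 (sororin) and in Ctcfl, the germline paralogue of Ctcf, where MBD was 42.0 in the list named for null and 45.1 in the list named for wild type.

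The 3 Hox members and the protocadherin member all had Smchd1 within 1 kb. The Hox genes set position along the body axis. The HoxA member, at position 52221827 of chromosome 6 between Hoxa7 and Hoxa9, counted for 6 of 12 genes of that cluster and scored 15.7 in the null, 10.6 in the non-silencing and 8.01 in the untransduced list, with Smchd1 at 17.3. The HoxC member, 179 bp from Hoxc10, scored 14.4 in the null, 7.23 in the non-silencing and 8.23 in the untransduced list, with Smchd1 at 4.70. The HoxD member, between Evx2 and Hoxd13, scored 9.46 in the null, 5.43 in the non-silencing and 8.23 in the untransduced list, with Smchd1 at 7.54. All 3 thus scored highest in the null list, which was noticed after the values were seen. The share of all members that scored highest there was not counted, and differences of score between lists show no change in binding. No HoxB gene of 10 had a member.

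The clustered protocadherins, whose promoters are chosen with the help of Ctcf in neurons, had a single member. It lay 206 bp from Pcdhac1 and inside the span of most alpha genes, so that 13 of 14 alpha genes counted as having it. It scored 11.4 in the null, 28.2 in the non-silencing and 12.999 in the untransduced list, with H3K4me3 at 6.17 in null and 6.68 in wild-type cells and Smchd1 at 5.85. The MBD list named for wild type had a summit within 1 kb at 15.0, and the list named for null had none. None of 22 beta genes and none of 22 gamma genes had a member within 20 kb.

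Among imprinted genes 11 of 43 (25.6%) had a member, close to the 25.9% of all coding genes. The member at Peg13, a noncoding RNA gene inside Trappc9, scored 6.03 in the null, 10.9 in the non-silencing and 12.3 in the untransduced list. It had null H3K4me3 at 16.2, no wild-type H3K4me3 summit within 1 kb, and MBD at 42.7 in the list named for null and 51.6 in the list named for wild type. Kcnq1 had 2 members within 20 kb. The higher, inside the gene, had a null H3K4me3 summit (11.7) and no wild-type H3K4me3 summit within 1 kb. The member shared by Magel2 and Mkrn3, whose human counterparts lie in the Prader-Willi region, scored 23.1 in the null, 33.7 in the non-silencing and 7.53 in the untransduced list, with Smchd1 at 8.92. Airn and Grb10 held 1 member each. None of 9 genes of the X inactivation centre and Firre had a member.

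Of 22 genes at loci where Ctcf insulation has been studied, 7 had a member within 20 kb (31.8%), against 25.9% of all coding genes. Shh had 2, of which the higher scored 23.0 in the null, 12.02 in the non-silencing and 27.1 in the untransduced list. Lmbr1, the gene that houses the limb enhancer of Shh, held 1. Cdkn2a and Cdkn2b shared 1, and App, Ihh and Six2 each had another in or near them.

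Cell type genes were read from H3K4me3 first, and a gene counted when a summit lay within 2 kb of its start or its end. Gene ends of 20 of 22 neural stem cell genes carried H3K4me3 in null and of 21 in wild-type cells, against 4 of 12 glial genes in both, 3 of 10 blood and endothelial genes in both, and 4 of 10 mesenchymal and epithelial genes in null and 3 in wild-type cells. Neuronal genes carried it at 11 of 16 in null and 10 in wild-type cells. Genes of the neural stem cell list thus carried the mark almost throughout, as did 15 of 16 housekeeping genes in each genotype. A majority of neuronal genes carried it too. The share of all coding genes with H3K4me3 at an end was not counted, so these counts have no background beside them. Members within 20 kb were present for 8 of 22 neural stem cell genes, 6 of 16 neuronal, 3 of 12 glial, 4 of 10 blood and endothelial, 5 of 10 mesenchymal and epithelial and 5 of 16 housekeeping genes. Over all coding genes the share was 25.9%. Among these short lists the share was highest for mesenchymal and epithelial genes, at 50%.

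Nes, which encodes the intermediate filament nestin, and Id3 had 3 members each. The highest at Nes scored 20.7 in the null, 25.6 in the non-silencing and 20.8 in the untransduced list. Sox2, a factor that maintains neural stem cells, had 1, at 11.3 in the null, 17.2 in the non-silencing and 14.8 in the untransduced list, with H3K4me3 at 38.5 in null and 32.6 in wild-type cells. Olig2 had 1 at 663 bp. Among neuronal genes, the higher of the 2 members near Neurod2 scored 17.7 in the null, 32.8 in the non-silencing and 34.6 in the untransduced list. Members near Mbp, a gene of myelin, and Spi1, a factor of blood cells, were present although those genes belong to other cell types, with untransduced scores of 29.6 and 15.3.

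Most members carried none of the other measured marks. No H3K4me3, H3K27me3, MBD or Smchd1 summit lay within 1 kb of 2832 members (59.6%, 58.1 to 60.96), against 2414 other untransduced summits (68.2%, 66.7 to 69.8).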

How the data were processed

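The series holds 28 libraries in 14 groups of ChIP-seq, MBD-seq or whole cell extract. Its deposited files used here are 11 lists of MACS2 summits, 1 bp each, whose scores the authors left on the −log10 scale. Whether these stand for p or q was not stated. The build mm10, CASAVA 1.4 and MACS2 (version 2) are named in the submitters' processing notes, and the aligner was not named in the sources read here. Each list was called on the pooled libraries of its group, per the labels, so depth per library is unknown and no replicate error can be given. A control that holds true signal, or a deeper library, changes which summits pass.

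Software was Python 3.11.15 (numpy 2.4.6; pandas 2.3.3; scipy 1.17.1; matplotlib 3.10.9 for plots). Marks counted within 1 kb and gene ends, meaning the start or the end of an annotated gene, within 2 kb. Each share has its exact 95% Clopper-Pearson interval and each difference a Newcombe interval; both cover counting error only, and neighbouring summits are not independent. No test was run. Genes came from a RefSeq table of 49943 genes, 21887 of them coding, and promoters from RefSeq (GRCm38.p6); sequences of 1 chromosome were not used here. The distance code matched brute force exactly in 300 of 300 simulated cases. Summits on unplaced contigs (13 null, 15 non-silencing and 9 untransduced) were left out.

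The members, gene lists and alternatives were chosen with earlier results of these data known. Genes named are those nearest to the 20 members of highest untransduced score, the 10 of highest Smchd1 score, the members near H3K27me3, the 5 highest near both MBD lists, the 5 highest at gene ends with H3K4me3 in both genotypes, the longest runs, up to 5 genes of each list, and the summits at the 1 kb limit; genes of the printed sequences were taken by score. Others, and the genes with most members, were chosen after their values were seen.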

Additional observations from a re-analysis of the deposited data

How the results depend on the processing

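Of 130 alternatives tried, 99 kept their direction and moved by less than the counting interval or 1.5 times, 29 moved and 2 reversed. The reversed ones are the MBD differences between members and other untransduced summits with MBD counted within 250 bp, at -0.728 percentage points for the list named for null and -0.574 for the list named for wild type. With Ctcf scores of at least 10 there were 1248 members, of which 25.7% lay near null and 26.4% near wild-type H3K4me3 (differences 9.54 and 9.81 percentage points) and 29.3% near a coding gene end. With equal numbers of the highest summits from each Ctcf list there were 2896 members, with null H3K4me3 near 24.1% and wild-type near 24.6%. With marks within 250 bp the members' shares were 12.2% for null and 13.1% for wild-type H3K4me3 (differences 5.19 and 5.45), 0 for wild-type H3K27me3, and 0.799% and 1.09% for the MBD lists named for null and for wild type. With marks within 5 kb they were 32.0% and 32.5% for H3K4me3 of null and wild type, 0.400% for wild-type H3K27me3, and 55.04% and 60.7% for MBD (differences 5.28 and 4.35). The longer Smchd1 list, called at 5e-3, gave 3.05% (difference 1.61). Gene ends within 1 kb gave 18.0%, within 5 kb 40.8%, and ends of all annotated genes 34.6%. The letters AGGNGGC were in 64.9% of promoters with a member. Wider limits and longer lists hold more summits by construction; the cause of the other moves was not tested. Single libraries could not be left out, since each list pools its libraries. No paired analysis was possible because the lists hold no values per library. Depth is unknown, so an unlisted summit may be bound below the threshold.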
